A study of Mus musculus with 2 samples.

Results

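Complex I, the NADH:ubiquinone oxidoreductase of the inner mitochondrial membrane, was followed through the 44 genes whose symbol in the array's platform annotation begins with Nduf. Membership followed the symbol and not the signal, but the list was chosen with earlier results of these data known. The array held 18193 genes with a single-symbol probe set (a probe set is the group of short probes that reads 1 transcript). Each gene was read from the probe set with the highest mean over both arrays. The 44 genes comprised 34 complex I subunits, 8 assembly factors named Ndufaf, and Ndufa4 with its relative Ndufa4l2. The arrays held total RNA of diaphragm muscle from C57/BL6 mouse embryos at E18.5, shortly before birth, 1 array labelled RP58-/- (knockout) and 1 labelled RP58+/+ (wild type). RP58 is the zinc finger repressor now named Zbtb18, and the labels give the genotype as the homozygous loss of it. How the gene was deleted, and any further allele, agent or pooling of embryos, is unstated in the labels and design text. The extraction note in the labels speaks of a culture, whereas the tissue label and design text give dissected diaphragm, which is followed here. The comparison asks how expression in muscle differs without RP58.

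Complex I takes electrons from NADH, passes them through a chain of iron-sulfur clusters to ubiquinone, and pumps protons. Its matrix arm holds the N module, which oxidises NADH, and the Q module, where ubiquinone is reduced. Its membrane arm holds the proton-pumping P module, with a part proximal to the matrix arm and a distal part. The core subunits do the catalysis, and the accessory ones surround and stabilise them. Assembly factors help to build the modules and then leave. Skeletal muscle is rich in this enzyme. The roles given here are known mainly from the human and bovine enzymes.

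Signals are on the log2 scale as deposited, so a difference of 1 is 2-fold. All differences are RP58-/- minus RP58+/+. Each genotype had 1 array, so the variation among embryos is unknown and no test was possible. Genes that differed by 1.5-fold or more (0.58 on the log2 scale) are called lower or higher, which is a rule of size and not of significance. The only repeat was that of several probe sets for a gene, whose differences had a pooled SD of 0.28 over 5675 genes. Genes with a mean signal below a floor of 5.52, taken at the 40th percentile over the table, were left out of the counts, which left 14093 genes. Their median difference was -0.003.

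Over the 45101 probe sets of the table, signals on both arrays correlated with r = 0.985. The tissue label was met by muscle markers on both arrays. Mylpf, a fast myosin light chain, had signals of 13.61 on the array labelled RP58-/- and 14.20 on that labelled RP58+/+. Zbtb18 itself had signals of 9.21 on the array labelled RP58-/- and 8.91 on that labelled RP58+/+, a difference of 0.30. Whether its probe set lies in the deleted stretch is not stated in the labels or design text, so the directions below rest on the labels. The samples also differed in Xist, the female-specific RNA of X inactivation, which had signals of 6.96 on the array labelled RP58-/- and 11.47 on that labelled RP58+/+. The Y-linked gene Eif2s3y had 8.58 on the array labelled RP58-/- and 3.59 on that labelled RP58+/+. The array labelled RP58-/- thus had a male pattern at these genes and that labelled RP58+/+ a female one. Genotype and this sex-linked difference cannot be told apart.

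Differences of complex I subunit genes lay below 0 almost throughout. All 33 subunits above the floor had differences below 0, against 50.4% of all 14093 genes. Of them, 15 (45.5%) were lower by the size rule, where 6.51% of all genes were, and 0 were higher, where 3.83% of all genes were. The subunit median was -0.56 (1.48-fold lower). The subunit with the lowest difference was Ndufa5 at -1.04 and the highest Ndufa13 at -0.11, and 31 of the 33 lay in the lowest 25% of all genes. Over all 43 Nduf genes above the floor, 40 were below 0, 19 were lower and 1 was higher. At 2-fold, 2 of the 43 were lower, Ndufa5 and Ndufaf5, where 2.31% of all genes were. Each of the 43 had a signal of at least 7.19 on both arrays, so none passed the floor through 1 array alone. The 44th, Ndufb4, a subunit of the distal membrane arm, was read by a dim probe set with signals of 5.04 on the array labelled RP58-/- and 4.98 on that labelled RP58+/+, and it gives no usable difference.

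**Figure D1:**
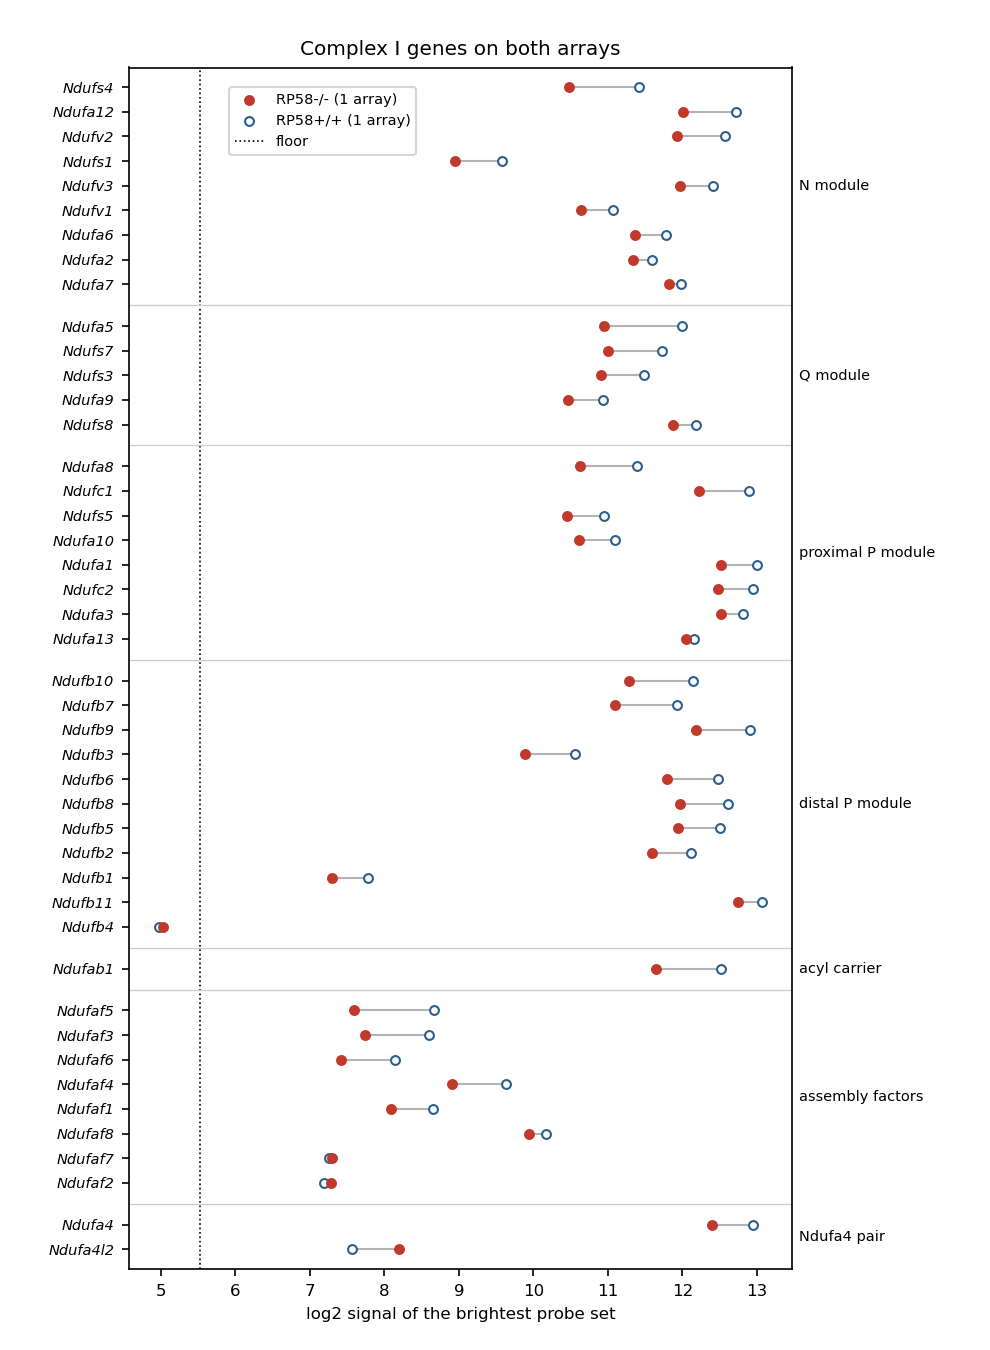
Log2 signal of the brightest probe set (x axis) for each of the 44 genes (rows), grouped by module, on the array labelled RP58-/- (filled) and the array labelled RP58+/+ (open). The dotted line is the floor at 5.52. The filled point lies left of the open one for all 33 subunits above the floor, and right of it for Ndufa4l2, Ndufaf2, Ndufaf7 and the dim Ndufb4.

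Muscle and neighbouring tissue genes differed on the same arrays. Contractile genes had a median of -1.40, and 24 of 31 above the floor were lower and 0 higher. Of 9 skeletal muscle markers, some of them contractile genes, 8 were below 0, 6 lower and 0 higher. The myogenic factors among them stayed inside the rule. Myog had 9.22 on the array labelled RP58-/- and 9.13 on that labelled RP58+/+ (0.09). Myod1 had 7.07 on the array labelled RP58-/- and 7.25 on that labelled RP58+/+ (-0.18). All 8 liver markers were above 0 and 5 were higher by the size rule, with signals from 11.96 to 14.30 on the array labelled RP58-/- and from 10.64 to 14.23 on that labelled RP58+/+. Of the mesothelium markers, 3 of 5 were higher, with signals from 8.54 to 12.38 on the array labelled RP58-/- and from 8.66 to 11.69 on that labelled RP58+/+. Of 6 lung markers 3 were above the floor and 2 of these were higher, with signals from 7.29 to 11.30 on the array labelled RP58-/- and from 6.06 to 7.65 on that labelled RP58+/+. Of 5 leukocyte markers, 3 were higher. Over all genes above the floor, 6.51% were lower and 3.83% higher. Of the 4 heart markers, Myh6 and Nppa lay under the floor on both arrays, whereas Nkx2-5 had signals of 6.86 on the array labelled RP58-/- and 7.01 on that labelled RP58+/+ and Gata4 had 6.70 on the array labelled RP58-/- and 6.34 on that labelled RP58+/+. Of 4 markers of brown fat, a tissue rich in mitochondria, 3 were below 0 and 2 were lower, Cidea (-0.67) and Ppargc1a (-0.63), with signals from 5.70 to 6.65 on the array labelled RP58-/- and from 5.75 to 7.28 on that labelled RP58+/+. Its defining marker Ucp1 was close to the floor, at 5.70 on the array labelled RP58-/- and 5.75 on that labelled RP58+/+. The part of these tissues in the complex I values was not tested, and fewer muscle cells cannot be told apart from less complex I mRNA per cell.

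Promoter sequences are shown for the lowest and the highest subunit, Ndufa5 and Ndufa13, and for 2 assembly factor genes, Ndufaf4 and Ndufaf5, chosen after the search because they hold the matches described next. They are RefSeq windows of GRCm38.p6 from 250 bases before to 50 after an annotated gene start, in the direction of the gene, and the table held 39 of the 44 genes. The others were Ndufa2, Ndufa4l2, Ndufaf6, Ndufb9 and Ndufs1. The window shown for Ndufa5 is chr6:24527641-24527940 (minus strand), that of Ndufa13 chr8:69901971-69902270 (minus), that of Ndufaf4 chr4:24897833-24898132 (plus) and that of Ndufaf5 chr2:140170396-140170695 (plus). Ndufa5 had another window, chr6:24527477-24527776 (minus), which overlaps the one shown by 136 bases and held no match. Capitals mark matches to a searched motif.
Ndufa5: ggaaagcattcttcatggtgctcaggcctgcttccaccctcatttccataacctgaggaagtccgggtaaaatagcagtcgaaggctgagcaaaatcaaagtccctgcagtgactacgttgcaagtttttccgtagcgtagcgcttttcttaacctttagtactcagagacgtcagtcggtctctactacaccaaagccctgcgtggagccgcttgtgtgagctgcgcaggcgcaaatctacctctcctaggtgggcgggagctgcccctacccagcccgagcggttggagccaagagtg
Ndufa13: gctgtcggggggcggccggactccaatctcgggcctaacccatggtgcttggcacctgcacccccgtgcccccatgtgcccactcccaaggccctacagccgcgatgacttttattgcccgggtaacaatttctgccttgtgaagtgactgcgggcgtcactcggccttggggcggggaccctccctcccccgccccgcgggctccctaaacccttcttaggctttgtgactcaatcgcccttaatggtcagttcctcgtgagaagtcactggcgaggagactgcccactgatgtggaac
Ndufaf4: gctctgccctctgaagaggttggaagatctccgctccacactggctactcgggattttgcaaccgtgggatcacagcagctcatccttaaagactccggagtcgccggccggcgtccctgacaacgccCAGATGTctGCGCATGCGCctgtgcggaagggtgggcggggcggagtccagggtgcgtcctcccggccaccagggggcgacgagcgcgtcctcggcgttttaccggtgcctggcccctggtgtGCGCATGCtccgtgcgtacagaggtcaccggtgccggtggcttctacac
Ndufaf5: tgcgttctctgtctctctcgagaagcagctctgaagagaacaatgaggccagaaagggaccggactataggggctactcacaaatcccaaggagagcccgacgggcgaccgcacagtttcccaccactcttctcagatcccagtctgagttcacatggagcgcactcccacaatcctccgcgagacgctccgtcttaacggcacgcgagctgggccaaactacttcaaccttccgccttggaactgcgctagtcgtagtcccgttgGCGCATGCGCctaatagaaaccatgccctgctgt

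The 4 motifs searched on both strands were GCATGCGC for NRF1 and ACCGGAAGT for GABP, both activators of nuclear genes for respiration, AAGGTCA for the oestrogen-related receptors, and ACATCTG, the core letters bound by RP58. GCATGCGC stood in 4 of 41 promoter windows of the 39 genes (9.76%), against 4.42% of 14390 windows of the genes above the floor. Those windows belonged to Ndufa6, Ndufa8, Ndufaf4 and Ndufaf5. In Ndufaf5 the match lies just after the gene start, at positions 17 and 19, where the letters read the same on both strands and so count as overlapping matches. In Ndufaf4 it lies at -113 and -111, overlapping likewise, and again at 2. AAGGTCA stood in 3 windows (7.32%, against 3.64%), those of Ndufb2, Ndufb4 and Ndufs5. ACCGGAAGT stood in 1 (2.44%, against 1.83%), that of Ndufs3. ACATCTG stood in 3 (7.32%, against 2.88%), those of Ndufaf4 at -122, Ndufaf8 at -146 and Ndufb4 at -13. Ndufa5 and Ndufa13, at the ends of the subunit range, held none of the 4 in the windows shown. The median GC content was 59.7% in both sets of windows. A match is a stretch of letters and not a shown binding site.

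Over all genes above the floor, 50.4% were below 0 and 6.51% lower, the shares to set beside each module. In the N module, all 9 genes were below 0 and 4 were lower, with a median of -0.44. Ndufs4, an accessory subunit that holds the module to the rest of the matrix arm and whose loss in mice gives a Leigh-like brain disease, was the lowest. Its signal was 10.48 on the array labelled RP58-/- and 11.42 on that labelled RP58+/+, a difference of -0.95 (1.93-fold lower), and its 3 probe sets above the floor ran from -1.44 to -0.59. The core subunit Ndufs1, which carries several of the iron-sulfur clusters, had 8.94 on the array labelled RP58-/- and 9.58 on that labelled RP58+/+ (-0.64). Ndufv2, which carries an iron-sulfur cluster beside the entry site, had 11.92 on the array labelled RP58-/- and 12.57 on that labelled RP58+/+ (-0.65). Ndufv1, which binds NADH and the flavin, stayed inside the size rule, with 10.64 on the array labelled RP58-/- and 11.07 on that labelled RP58+/+ (-0.43). Thus 2 of the 3 core subunits of this module passed the rule. Ndufa12, an accessory subunit added late in assembly, was at -0.72 with all 3 probe sets above the floor at or below that value. At the other end, Ndufa7 had 11.82 on the array labelled RP58-/- and 11.98 on that labelled RP58+/+, a difference of -0.16, and its 5 probe sets ran from -0.34 to -0.06. Ndufa2 was at -0.25, Ndufa6 at -0.42 and Ndufv3 at -0.44.

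In the Q module, 5 genes were measured, all below 0, with a median of -0.58, and 2 were lower. Ndufa5, an accessory subunit on the surface of this module, had 10.95 on the array labelled RP58-/- and 11.99 on that labelled RP58+/+, a difference of -1.04 (2.05-fold lower), with -0.74 at its other probe set. Ndufs7, which carries the cluster that hands electrons to ubiquinone, had 11.01 on the array labelled RP58-/- and 11.72 on that labelled RP58+/+ (-0.72), and its other probe set was at -0.74. The core subunit Ndufs3 had 10.90 on the array labelled RP58-/- and 11.49 on that labelled RP58+/+, and at -0.58 (1.498-fold) it fell just short of the rule. Ndufs8, another core carrier of iron-sulfur clusters, had 11.87 on the array labelled RP58-/- and 12.19 on that labelled RP58+/+ (-0.31). Its 6 probe sets disagreed most among all members, from -0.78 to 0.17, with a mean of -0.42. Ndufa9, at the joint between the arms, was at -0.47. Over both modules of the matrix arm, the 6 measured core subunits had a median of -0.61 and the 27 accessory subunits of the whole complex one of -0.53, a gap that was not tested.

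**Figure D2:**
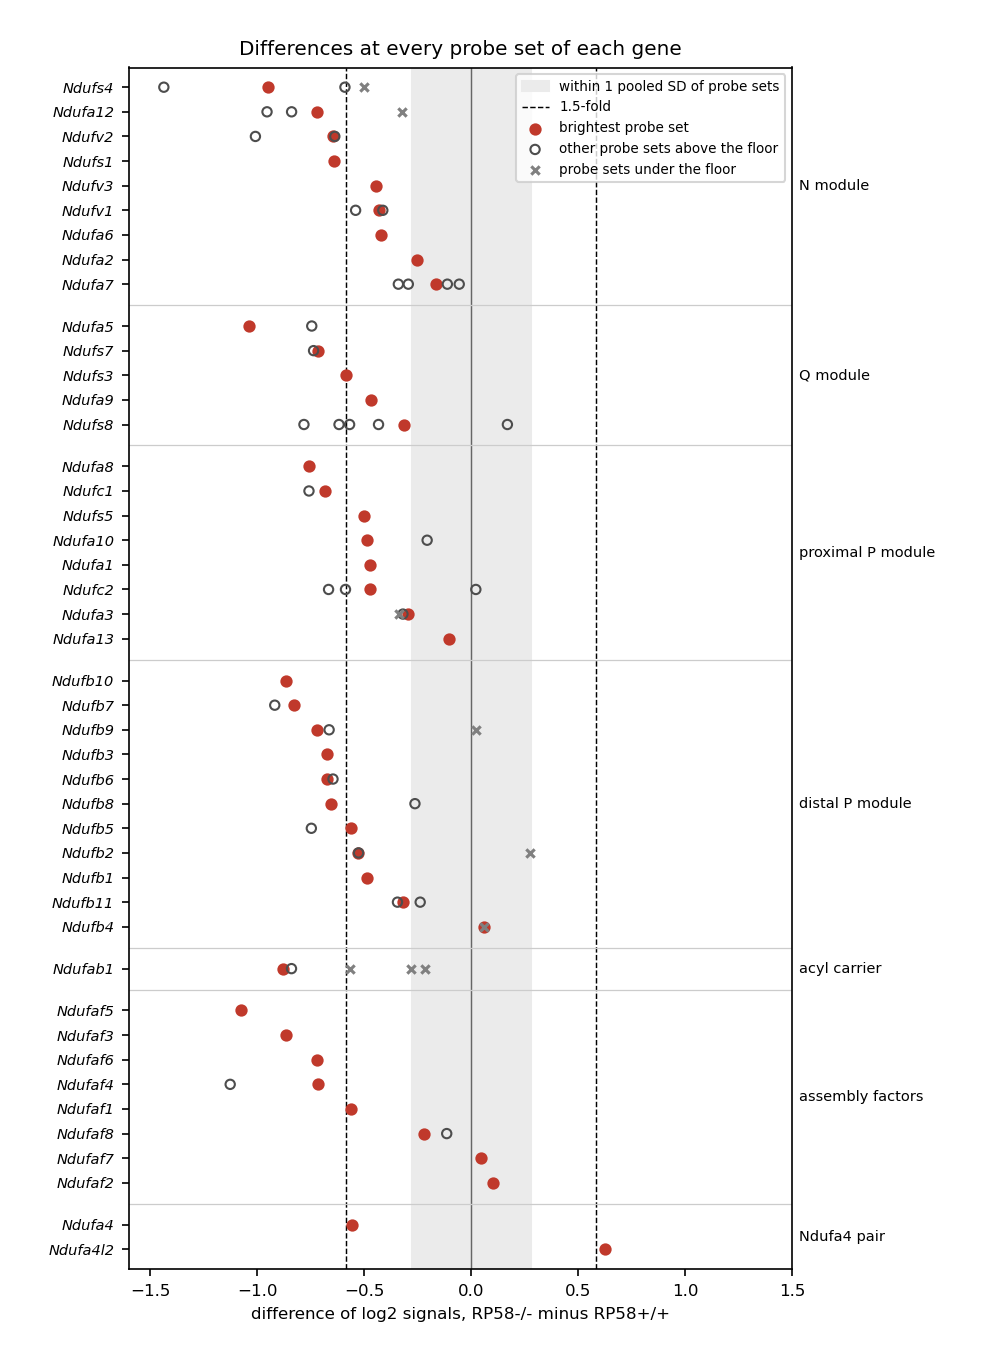
Difference of log2 signals, RP58-/- minus RP58+/+ (x axis), at every single-symbol probe set of the 44 genes (rows). Filled points are the brightest probe sets, open points others above the floor, crosses those under it. Dashed lines mark 1.5-fold and the grey band 1 pooled SD of probe sets (0.28). Of the 58 probe sets of genes with more than 1 above the floor, 56 lie below 0.

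In the proximal membrane arm, all 8 genes were below 0, with a median of -0.48, and 2 were lower. Ndufa8, a subunit of the intermembrane space side, had 10.63 on the array labelled RP58-/- and 11.39 on that labelled RP58+/+ (-0.76), and the small membrane subunit Ndufc1 had 12.21 on the array labelled RP58-/- and 12.90 on that labelled RP58+/+ (-0.68). Ndufa13, also known as the cell death gene GRIM-19, was nearly equal, with 12.05 on the array labelled RP58-/- and 12.16 on that labelled RP58+/+ (-0.11). Ndufa3 was at -0.29, and Ndufs5, Ndufa10, Ndufa1 and Ndufc2 lay between -0.50 and -0.47.

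The distal membrane arm had a median of -0.66, with 6 of 10 genes lower and all 10 below 0. Ndufb10, a subunit of the intermembrane space side, had 11.28 on the array labelled RP58-/- and 12.14 on that labelled RP58+/+ (-0.86, 1.82-fold lower). Ndufb7, of the same side, had 11.10 on the array labelled RP58-/- and 11.93 on that labelled RP58+/+ (-0.83), and its other probe set was at -0.92. The other 4 that passed, Ndufb9, Ndufb3, Ndufb6 and Ndufb8, were between -0.72 and -0.65, a spread far smaller than the probe set SD. Ndufb5 (-0.56), Ndufb2 (-0.53) and Ndufb1 (-0.48) stood inside the rule. Ndufb11 was the highest of the module, with 12.75 on the array labelled RP58-/- and 13.06 on that labelled RP58+/+ (-0.32). The acyl carrier protein Ndufab1, which sits in both arms and also serves mitochondrial fatty acid synthesis, had 11.64 on the array labelled RP58-/- and 12.52 on that labelled RP58+/+ (-0.88), with -0.84 at its other probe set above the floor. The 4 module medians ran from -0.66 to -0.44, and their order was not tested.

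Ndufb11 (-0.32) and the membrane arm subunit Ndufa1 are encoded on the X chromosome. Ndufa1 had 12.52 on the array labelled RP58-/- and 12.99 on that labelled RP58+/+ (-0.47). The part of the sex-linked difference in these values was not tested.

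Assembly factors named Ndufaf were lower in part. Of the 8 genes, 4 were lower, 0 higher and 6 below 0, with a median of -0.64. Over all genes, 6.51% were lower, 3.83% higher and 50.4% below 0. Ndufaf5, which hydroxylates the core subunit Ndufs7 during assembly, was the lowest of all 44 genes, with 7.59 on the array labelled RP58-/- and 8.67 on that labelled RP58+/+ (-1.08, 2.11-fold lower). Ndufaf3 and Ndufaf4 act together on the Q module. Ndufaf3 had 7.74 on the array labelled RP58-/- and 8.61 on that labelled RP58+/+ (-0.86). Ndufaf4 had 8.91 on the array labelled RP58-/- and 9.63 on that labelled RP58+/+ (-0.72), and a second, dimmer probe set was at -1.13. Ndufaf6, an early factor, had 7.42 on the array labelled RP58-/- and 8.14 on that labelled RP58+/+ (-0.72). Ndufaf1, of the complex that builds the membrane arm, had 8.10 on the array labelled RP58-/- and 8.66 on that labelled RP58+/+ (-0.56), inside the rule. The remaining 3 were within 1 probe set SD of 0. Ndufaf8, the partner that stabilises Ndufaf5, had 9.95 on the array labelled RP58-/- and 10.17 on that labelled RP58+/+ (-0.22). Ndufaf7, a methyltransferase, had 7.30 on the array labelled RP58-/- and 7.25 on that labelled RP58+/+ (0.05). Ndufaf2, a relative of Ndufa12 that holds its place during assembly, had 7.29 on the array labelled RP58-/- and 7.19 on that labelled RP58+/+ (0.10), while Ndufa12 itself was at -0.72.

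Complex I assembly factors with other names were closer to 0. Their median was -0.40 over 11 genes, with 10 below 0, 1 lower (where 6.51% of all genes were) and 0 higher. Tmem70, which serves the assembly of ATP synthase and of complex I, had 8.96 on the array labelled RP58-/- and 10.01 on that labelled RP58+/+ (-1.05) and was the gene that passed. Ecsit (-0.48), Acad9 (-0.18) and Tmem126b (-0.40), which work with Ndufaf1 on the membrane arm, did not pass, nor did Tmem186 (-0.23). The signal of Tmem126b on the array labelled RP58-/-, 5.40, lay under the floor. Dmac1 (-0.55), Lyrm2 (-0.45), Timmdc1 (-0.40), Dmac2 (-0.15) and Foxred1 (-0.08) lay inside the rule. Nubpl, which delivers iron-sulfur clusters to complex I, was the exception in sign, with 8.89 on the array labelled RP58-/- and 8.50 on that labelled RP58+/+ (0.39).

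Ndufa4 and Ndufa4l2 differed in opposite directions. Ndufa4, first described with complex I and now counted with cytochrome c oxidase, had 12.40 on the array labelled RP58-/- and 12.95 on that labelled RP58+/+ (-0.55). Ndufa4l2, a relative induced by low oxygen, had 8.19 on the array labelled RP58-/- and 7.57 on that labelled RP58+/+, a difference of 0.62 (1.54-fold higher), and was the one Nduf gene called higher. It was as high as or higher than 96.7% of all genes. Each was read by 1 probe set.

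The subunits encoded in mitochondrial DNA could be read for 1 gene. ND5, a proton-pumping core subunit of the distal membrane arm, had a signal of 13.14 on the array labelled RP58-/- and 12.42 on that labelled RP58+/+, a difference of 0.72 (1.65-fold higher). It thus lay on the other side of 0 from all 33 nuclear subunits above the floor. No second probe set bears on it.

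Signal strength did not order the subunits. Across the 33, mean signal and difference had a Pearson r of 0.10 and a Spearman rho of 0.12, as a description of subunits read on the same 2 arrays. Most were bright: 31 had a mean signal of at least 10. Of those 31, 14 were lower (45.2%) and all were below 0, against 12.4% lower and 53.7% below 0 among all 1336 genes that bright. The 8 Ndufaf genes were dimmer, with signals from 7.29 to 9.95 on the array labelled RP58-/- and from 7.19 to 10.17 on that labelled RP58+/+, and 7.20% of the 7961 genes with mean signals from 7 to 10 were lower.

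**Figure D3:**
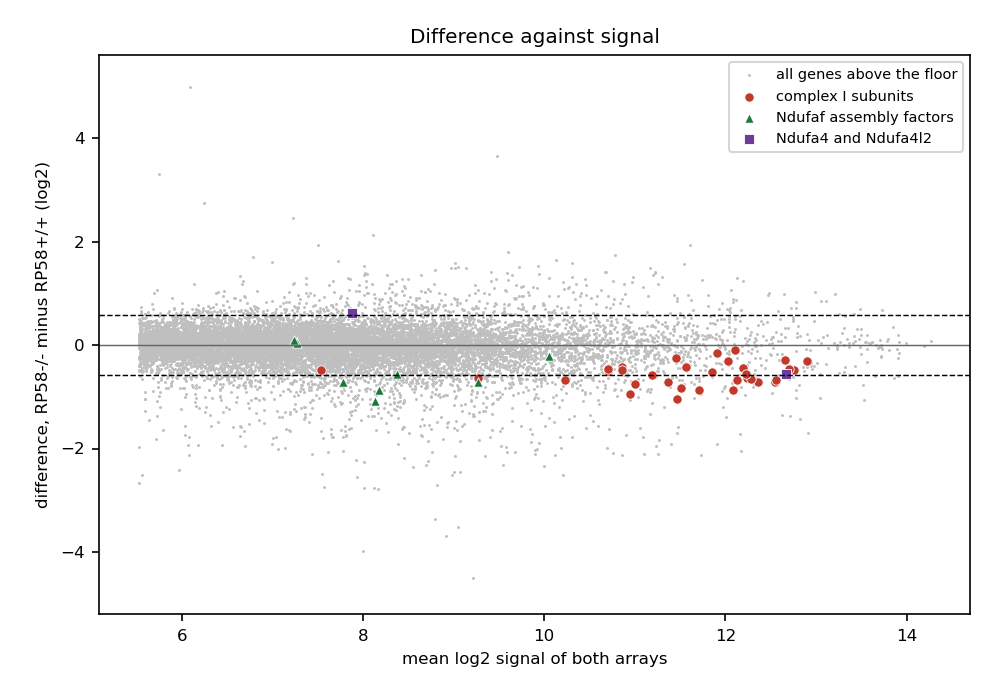
Difference of log2 signals, RP58-/- minus RP58+/+ (y axis), against the mean log2 signal of both arrays (x axis) for 14093 genes above the floor (grey), complex I subunits, Ndufaf genes, and Ndufa4 with Ndufa4l2. Dashed lines mark 1.5-fold. The subunits form a band from -1.04 to -0.11 at bright signals, and the Ndufaf genes lie at dimmer signals from -1.08 to 0.10.

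Repeat probe sets gave nearly the same picture. At least 2 probe sets above the floor read 22 members, and for 20 of these every one was below 0, and the pooled SD within these members was 0.21. The exceptions were Ndufs8 and Ndufc2, whose 4 probe sets ran from -0.67 to 0.02. The Ndufc2 probe set at 0.02 lay close to the floor of 5.52. It had 5.63 on the array labelled RP58-/- and 5.61 on that labelled RP58+/+. By the mean over probe sets 12 of the 22 were lower, as many as by the brightest, with Ndufb5 in place of Ndufb8. The other probe set of Ndufb8 (-0.26) was also close to the floor, with 5.45 on the array labelled RP58-/- and 5.71 on that labelled RP58+/+. In all, 5 members lay within 0.05 of the size rule: Ndufs3, Ndufb5, Ndufaf1 and Ndufa4 just short of it and Ndufa4l2 just past it.

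The other respiratory complexes had medians on the same side of 0. The median was -0.60 for the 4 genes of complex II, -0.45 for the 9 of complex III, -0.40 for the 14 of complex IV and -0.45 for the 15 of complex V, and over all 42 it was -0.45, with 39 below 0, 12 lower and 1 higher. Complex I subunits were thus at -0.56 against -0.45, a gap of -0.11 that was not tested. The spread differed: complex IV reached from -1.995 (Cox7a1, a subunit isoform of heart and skeletal muscle) to 0.59 (Cox6b2, an isoform best known from testis), whereas complex I subunits had a range of -1.04 to -0.11. Sdhb (-0.63) and Sdhd (-0.50) bounded complex II, Cyc1 (-0.88) and Uqcrc1 (-0.25) complex III, and Atp5g1 (-0.80) and Atp5d (-0.30) complex V. The 76 genes listed as mitochondrial ribosome genes by an Mrpl or Mrps symbol alone had a median of -0.38. They ran from Mrps36 (-1.01) to Mrpl52 (0.23), with 23 lower and 0 higher. Among 17 other mitochondrial proteins the median was -0.34, with 6 lower, from Mfn2 (-1.04) to Tomm40 (0.35). Over all 14093 genes above the floor, 50.4% were below 0, 6.51% lower and 3.83% higher. Contractile genes, with their median of -1.40, ran from Mybpc2 (-3.36) to Tpm3 (0.11), so that the lowest complex I subunit lay above the contractile median.

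**Figure D4:**
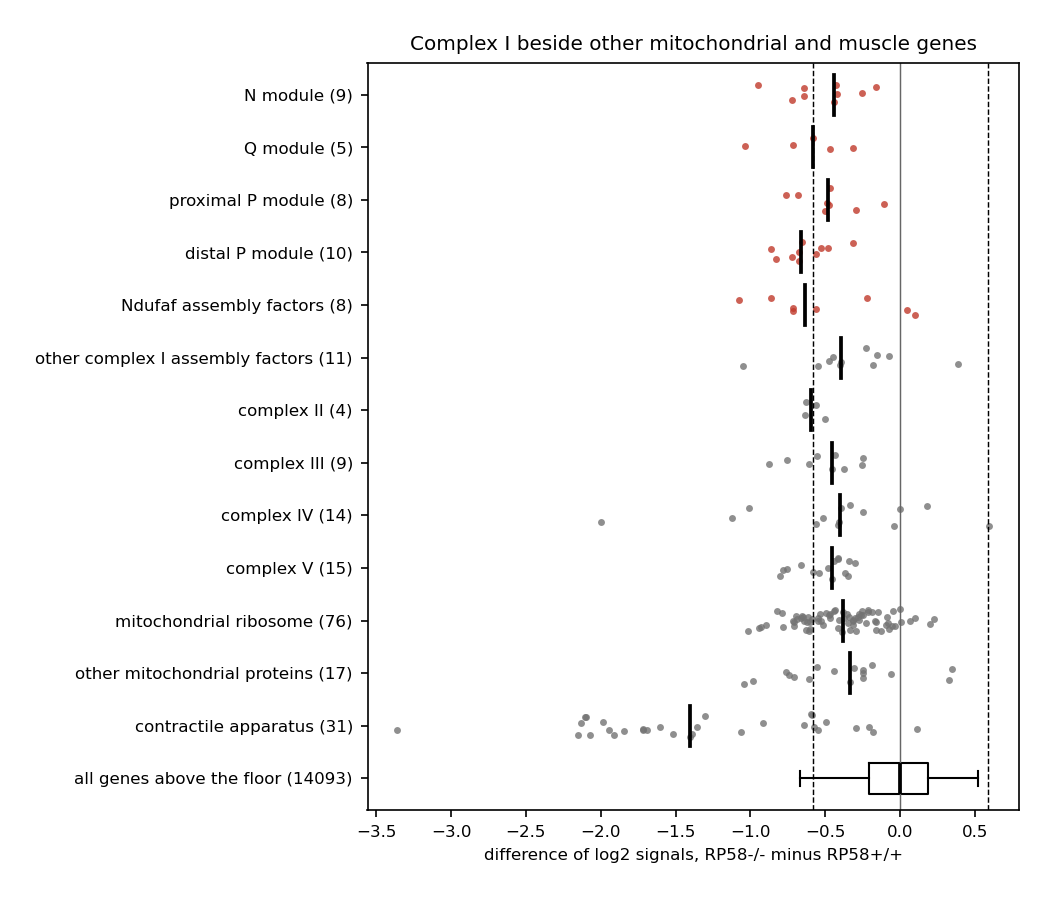
Difference of log2 signals, RP58-/- minus RP58+/+ (x axis), of each gene above the floor in complex I modules and Ndufaf genes (red) and in other lists (grey), with the number of genes in brackets and a bar at each median. The box at the bottom is the middle of all 14093 genes, with its median at -0.003 and whiskers at the 5th and 95th percentiles, and dashed lines mark 1.5-fold. Complex I module medians lie between -0.66 and -0.44, and the contractile median lies at -1.40.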

How the data were processed

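Biotin-labelled cRNA from total RNA was hybridised to Affymetrix mouse arrays, 1 for each genotype. The deposited values are log2 signals per probe set, which the authors computed with RMA (background correction, quantile normalisation between arrays and summary of probes), per the design text of the series. The program, per the submitters' processing notes, was Affymetrix Expression Console 1.1. Quantile normalisation removes any difference in total mRNA, and RMA compresses differences of very dim and very bright probe sets and gives no detection call.

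Of 45101 probe sets, 34945 had 1 gene symbol in GEO's platform annotation, 932 had several, 9160 had none here and 64 were controls. Only single-symbol probe sets were used. The members, gene lists and thresholds were chosen with earlier results of these data known. Every Nduf gene was accounted for. Named from other lists were the lowest and highest members, all complex I assembly factors and all biogenesis regulators. Complex V genes were listed under old and new symbols. Tools were Python 3.11.15, pandas 2.3.3, numpy 2.4.6, statsmodels 0.14.6 (loess) and scipy 1.17.1. The functions were tested on simulated data. No p-value is given, and the number of arrays limits the precision. Alternatives were the mean over probe sets, no floor or one at the 60th percentile, and centring by median or loess (fraction 0.3). The others were a 2-fold rule and dropping the probe set kinds _s_at, _x_at and _a_at. Of the 44 members, 26 were read from these kinds.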

Additional observations from a re-analysis of the deposited data

How the results depend on the processing

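There were 174 values over 28 results and 7 alternatives. Of these, 169 moved by less than the probe set SD of 0.28 (medians) or by less than 1.5 times (counts). Some alternatives could move little. Centring on the median subtracts only -0.003 from each difference. Against 43 Nduf genes in the main setting, no floor left 44 and the higher floor 43. The other 5 of the 174 values were as follows. Under the 2-fold rule the genes called lower were 2 of 43 Nduf genes against 19 at 1.5-fold, 1 of 33 subunits (Ndufa5) against 15, and 1 of 8 Ndufaf genes (Ndufaf5) against 4, the count called higher was 0 against 1, and 2.31% of all genes were lower. Without _s_at, _x_at and _a_at probe sets the complex III median was -0.87 over 7 genes against -0.45 over 9. Fewer genes alone do not give that shift, since only Cyc1 (-0.88) was so low by the brightest probe sets. Other probe sets of complex III genes were lower than the brightest, down to -0.87 for Uqcrq (brightest -0.55), -0.91 for Uqcrb (-0.25) and -1.25 for Uqcr10 (-0.37). Without those kinds complex III thus lay below the complex I subunits, at -0.87 against -0.67. Over these settings the subunit median ran from -0.67 to -0.52, that of the N module from -0.68 to -0.41, of the Q module from -0.74 to -0.54, of the proximal membrane arm from -0.58 to -0.44 and of the distal one from -0.66 to -0.63. The gap between the medians of subunits and of complexes II to V ran from -0.13 to -0.04. The gap between subunits and Ndufaf genes was 0.08 and turned to -0.03 without _s_at, _x_at and _a_at probe sets, with a highest value of 0.11, so its sign is not settled. Without those probe sets the Q and N module medians also lay below that of the distal arm, at -0.74 and -0.68 against -0.66. The N module value then rested on 4 of its 9 genes, the Q module value on all 5 and the distal value on 8 of 10. The share of all genes lower at 1.5-fold ran from 5.38% to 7.40%. No paired analysis was possible because each genotype has 1 array and the labels give no replicate numbers, and no replicate could be left out. Probe sets near the floor have little signal over background and limit what can be read of Ndufb4.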

Other observations

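Regulators of mitochondrial biogenesis, from a list of 11 genes, had a median difference of -0.47, with 10 below 0 (50.4% of all genes were), 3 lower by the size rule (6.51% of all genes) and 0 higher. Tfb2m, a factor for mitochondrial transcription, had 7.95 on the array labelled RP58-/- and 8.73 on that labelled RP58+/+ (-0.78). The nuclear receptor gene Esrra had 7.47 on the array labelled RP58-/- and 8.20 on that labelled RP58+/+ (-0.72). The coactivator gene Ppargc1a had 6.65 on the array labelled RP58-/- and 7.28 on that labelled RP58+/+ (-0.63), and its 5 probe sets above the floor ran from -1.11 to -0.19. Tfam (-0.48), Tfb1m (-0.48), Gabpa (-0.47) and Yy1 (-0.40) lay inside the rule, as did Ppargc1b (-0.16), Nrf1 (-0.06), Esrrg (-0.003) and Pprc1 (0.02). The second probe set of Tfam was at -0.002, that of Esrrg at -0.49, that of Gabpa at -0.30 and that of Tfb1m at -0.29. The 3 probe sets of Nrf1 above the floor ran from -0.06 to 0.21, and the 4 of Yy1 from -0.40 to 0.12.

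A further 10 probe sets are assigned to several symbols of which at least 1 begins with Nduf, and they were not read as genes. Their median difference was -0.63, and 9 were below 0 and 6 lower by the size rule. The 6 with a mean signal of at least 10 ran from -1.03 to -0.61. The 9 single-symbol probe sets of Nduf genes under the floor ran from -0.56 to 0.27.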
